A study of Homo sapiens with 2 samples.

Results

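The EGF family ligands and ERBB receptors were examined as a group of 10 genes. They were the ligands HBEGF, TGFA, AREG, EREG, BTC, EGF and NRG1 and the receptors EGFR, ERBB2 and ERBB3. Every probe set annotated to 1 of these genes alone was taken, which gave 35 probe sets for 9 of the 10 genes, out of 19775 genes in all. No probe set was annotated to AREG alone in the array annotation used, so AREG was not analysed here. The RNA came from H2228 cells, human lung adenocarcinoma cells with the EML4-ALK variant 3 fusion, in both conditions. One sample had been given interleukin 4 (IL4), a cytokine that signals through JAK kinases and STAT6, and the other was untreated. The series description gives an IL4 dose of 100 ng/mL for 30 min. The protocol in the labels also speaks of transfection for 48 h with EML4-ALK plasmids, siRNAs or controls, and whether these cells had been transfected cannot be told from it. Each condition was measured on 1 Affymetrix U133 Plus 2.0 array, so no test between conditions was possible and every difference below is between 2 arrays.

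The ligands of the EGF family are made as membrane-anchored precursors, and proteases of the ADAM family cut them from the cell surface. Released ligand binds ERBB receptor tyrosine kinases on the same or neighbouring cells, which pair, phosphorylate each other and feed the RAS-MAP kinase and PI3 kinase pathways. In lung epithelium EGFR takes part in growth and repair, and in lung adenocarcinoma it is a well-known oncogene and drug target. The arrays measured mRNA only, and neither ligand release nor receptor phosphorylation was measured.

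All values are log2, so a difference of 1 is a 2-fold difference. The probe set with the highest mean over both arrays stood for its gene, and differences are IL4-treated minus untreated. Genes were called higher or lower from a 1.5-fold difference on. The median over all probe sets of the mean of both arrays, 5.03 and called the array median below, served as a mark for dim probe sets, and values of different genes were not compared as amounts. The median was 5.04 on the IL4 array and 5.00 on the untreated one, and the median difference over all genes was 0. Across 6056 genes with a second probe set at or above the array median, the differences of the 2 probe sets deviated from each other with an SD of 0.25, which is disagreement within these arrays and not variation between cultures. All 9 epithelial markers and all 5 lung adenocarcinoma markers lay at or above the array median. Of the other markers, 2 of 6 measured for leukocytes, 2 of 6 for endothelium and 2 of 7 for fibroblasts did so. Of all 19775 genes, 12949 did so, so a place above this mark is common. No leukocyte or endothelial marker reached 1.5-fold, with differences of -0.13 to 0.32 (median 0.12) and of -0.24 to 0.29 (median 0.074). Among markers named after their values were seen, the leukocyte markers PTPRC and ITGB2 had 2.37 and 7.27 with IL4, against 2.50 and 7.07 in untreated cells, and the endothelial marker CDH5 had 2.93 in both.

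IL4-treated H2228 cells had more mRNA of the ligands HBEGF, TGFA and NRG1 than untreated cells. HBEGF differed most, at 11.4-fold, TGFA was 2.55-fold higher and NRG1 1.67-fold higher. EREG was 1.25-fold higher, and EGF and BTC were 1.24-fold and 1.22-fold lower, none of which reached 1.5-fold. No receptor reached 1.5-fold in either direction. Thus 3 of 6 measured ligands and 0 of 3 receptors reached a 1.5-fold increase and 0 of the 9 genes a decrease of that size, where 3.21% of all genes were higher and 4.39% were lower. Among genes at or above the array median, as all 9 were, these shares were 4.34% and 5.88%. At 2-fold, 2 of the 9 genes were higher and 0 lower, where 1.11% of all genes were higher and 0.89% lower. The median difference was 0.53 over the ligands and -0.024 over the receptors. Each array pools all cells of a culture, so more RNA per cell and a larger share of expressing cells cannot be told apart.

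**Figure D1:**
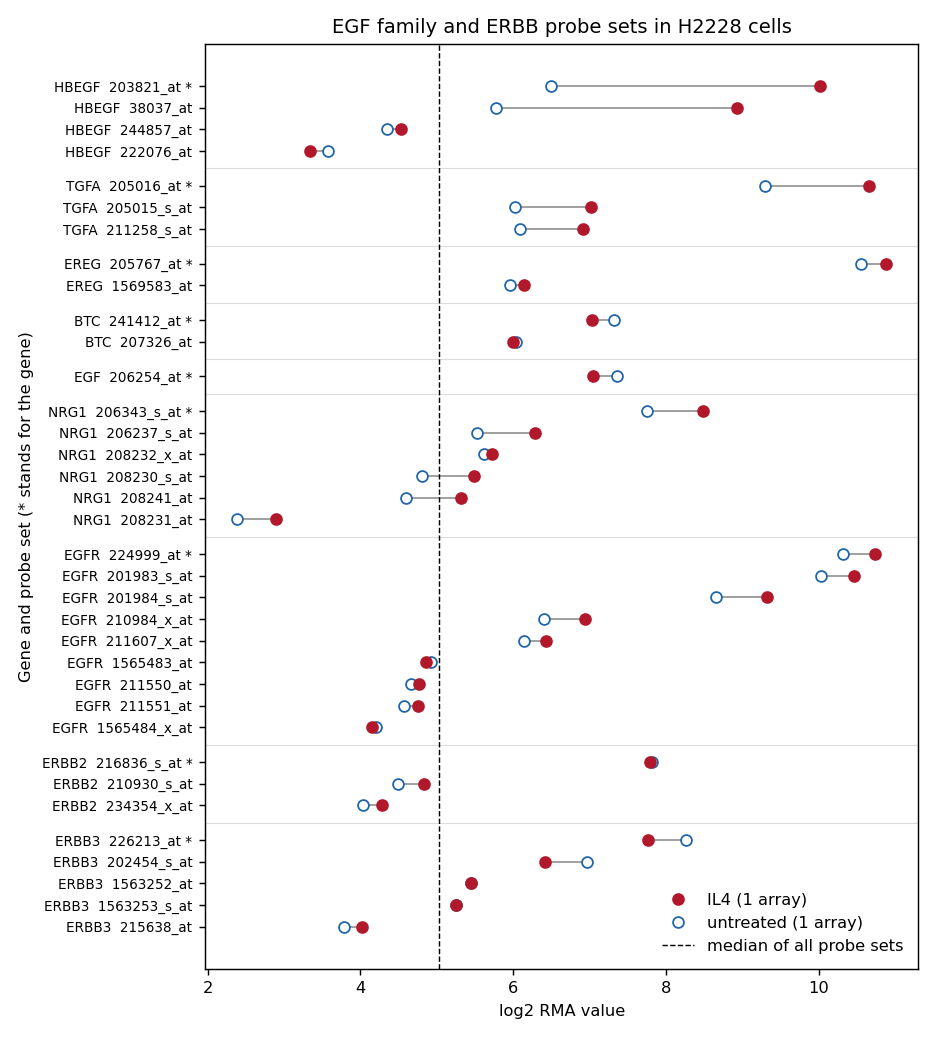
Log2 RMA value (x axis) of each of the 35 probe sets (rows, grouped by gene) in IL4-treated (filled red circles) and untreated (open blue circles) H2228 cells, 1 array each, to be compared within a row. The dashed line is the array median, 5.03; the widest gaps are those of the upper pair of HBEGF probe sets, 3.52 and 3.15.

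HBEGF encodes heparin-binding EGF-like growth factor, which binds EGFR and the related receptor ERBB4. Its probe set 203821_at had 10.01 with IL4 and 6.49 in untreated cells, a difference of 3.52. The probe set 38037_at had 8.93 with IL4 and 5.77 in untreated cells, a difference of 3.15. Both lay above the array median in both conditions. The other 2 HBEGF probe sets lay below the array median in both conditions and hardly differed. The probe set 244857_at had 4.52 with IL4 and 4.35 in untreated cells, and 222076_at had 3.34 with IL4 and 3.57 in untreated cells. Only the dim probe sets were thus without a large difference, and the mean over the 4 probe sets, 1.65, was well under the difference of the brightest. By size of the increase HBEGF was number 6 of 19775 genes.

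In the order of all genes by difference, HBEGF stood between PTX3, a secreted pattern recognition protein, at 3.71, and CD274, which encodes PD-L1, at 3.18. The next genes on either side were the anti-apoptotic gene BCL2A1 at 4.27 and the NF-kB inhibitor gene TNFAIP3 at 3.11. Likeness here rests on a single difference between 2 arrays.

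The promoter of HBEGF is shown because HBEGF had the largest difference of the family and IL4 signals through STAT6. The window is taken from RefSeq, build GRCh38.p14, chr5:140346554-140346853, minus strand, and runs from 250 bases before to 50 bases after the transcription start. The search covered 7 motifs on both strands, namely STAT6 (TTC and GAA with any 4 bases between them), STAT (TTCNNNGAA), AP-1 (TGANTCA), CRE (TGACGTCA), the GC box (GGGCGG), NF-kB and the SRF CArG box, and matches are in capitals.
HBEGF promoter: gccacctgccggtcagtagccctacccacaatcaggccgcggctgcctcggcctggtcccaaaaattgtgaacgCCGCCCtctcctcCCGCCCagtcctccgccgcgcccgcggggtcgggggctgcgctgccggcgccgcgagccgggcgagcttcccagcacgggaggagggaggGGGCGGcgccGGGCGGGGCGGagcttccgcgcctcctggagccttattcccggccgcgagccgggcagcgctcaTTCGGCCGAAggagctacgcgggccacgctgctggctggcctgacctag
The window held 1 match to the STAT6 spacing, TTCGGCCGAA, at positions 2 to 11 counted from the start as 1. It also held 5 matches to the GC box, the last 2 of which overlap by 1 base, and none to the other motifs. Of 35116 promoter windows of the same length, 6.44% held a STAT6 match and 45.0% a GC box. No other promoter window of the family held the STAT6 spacing, out of 10 windows for 8 of its genes. NRG1 and ERBB3 had no window in the promoter set used and were not searched. AP-1 matches were found in windows of EGF, EGFR and ERBB2, and GC boxes in those of AREG, BTC, EGFR and TGFA. A CRE match was found in the AREG window alone. Thus 3 of the 10 windows of the family held an AP-1 match and 1 a CRE match, against 7.71% and 1.85% of all windows. The GC box was in 5 of the 10, against 45.0%, and STAT6 and NF-kB in 1 each, against 6.44% and 5.91%. STAT and the CArG box were in 0, against 7.66% and 1.29%. These are few windows, and no test was made. A match describes letters only, and binding was not measured.

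TGFA encodes transforming growth factor alpha, another ligand of EGFR. All 3 of its probe sets lay above the array median and were higher with IL4. The probe set 205016_at had 10.65 with IL4 and 9.30 in untreated cells, a difference of 1.35. The probe set 205015_s_at had 7.01 with IL4 and 6.03 in untreated cells, and 211258_s_at had 6.91 with IL4 and 6.09 in untreated cells. Their differences were 0.99 and 0.82, so each probe set passed 1.5-fold and only the brightest passed 2-fold. TGFA was number 112 of 19775 genes, next to RBM24, an RNA-binding protein gene, at 1.35 and CFLAR, an inhibitor of death receptor signalling, also at 1.35. Beyond these stood NEDD4L at 1.35 and MB21D2 at 1.35.

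The promoter of TGFA, the other ligand above 2-fold, is shown for the first of its windows in the table, at chr2:70553777-70554076, minus strand, GRCh38.p14, with matches in capitals as before.
TGFA promoter: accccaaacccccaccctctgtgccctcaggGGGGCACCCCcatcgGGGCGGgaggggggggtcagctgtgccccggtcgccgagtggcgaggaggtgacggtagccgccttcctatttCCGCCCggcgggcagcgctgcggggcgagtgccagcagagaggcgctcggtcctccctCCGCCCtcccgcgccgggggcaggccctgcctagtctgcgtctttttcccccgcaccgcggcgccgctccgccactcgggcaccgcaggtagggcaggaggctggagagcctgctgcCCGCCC
This window held 1 NF-kB match, GGGGCACCCC, at positions -219 to -210 from the start, and 4 GC boxes. Of all windows, 5.91% held an NF-kB match. The second TGFA window, at chr2:70553397-70553696, held none of the 7 motifs.

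NRG1 encodes neuregulin 1, a ligand of ERBB3 and ERBB4 with many isoforms. All 6 of its probe sets were higher with IL4, by 0.11 to 0.76. The probe set that stood for the gene, 206343_s_at, had 8.48 with IL4 and 7.75 in untreated cells, a difference of 0.74. The probe set 206237_s_at had 6.29 with IL4 and 5.53 in untreated cells, and 208230_s_at had 5.49 with IL4 and 4.80 in untreated cells. These 3 probe sets differed by 0.69 to 0.76. The smallest difference, 0.11, was that of 208232_x_at, at 5.72 with IL4 and 5.61 in untreated cells. Of the dimmer probe sets, 208241_at had 5.31 with IL4 and 4.60 in untreated cells, and 208231_at had 2.90 with IL4 and 2.39 in untreated cells. Most NRG1 probe sets thus moved alike, and 4 of the 6 passed 1.5-fold. Their mean of 0.59 was just at the 1.5-fold level, which is 0.58 on the log2 scale. NRG1 was number 424 of 19775 genes, between the adhesion gene NECTIN2 at 0.74 and MXRA5 at 0.73. LTO1 at 0.74 and FAM107B at 0.73 came next.

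The remaining ligands differed by less than 1.5-fold. EREG encodes epiregulin, which binds EGFR and ERBB4. Its probe set 205767_at had 10.88 with IL4 and 10.55 in untreated cells, and 1569583_at had 6.15 with IL4 and 5.95 in untreated cells, differences of 0.32 and 0.20. BTC encodes betacellulin, a ligand of the same receptors. Its probe set 241412_at had 7.03 with IL4 and 7.32 in untreated cells, and 207326_at had 5.99 with IL4 and 6.03 in untreated cells, differences of -0.29 and -0.036. EGF, the founding ligand of the family, had a single probe set, 206254_at, with 7.04 with IL4 and 7.36 in untreated cells, a difference of -0.32. In the RefSeq gene table, EREG, AREG and BTC follow one another among the protein-coding genes of chromosome 4, and EREG and BTC differed in opposite directions. HBEGF lies on chromosome 5, TGFA on chromosome 2 and NRG1 on chromosome 8, so the 3 ligands above 1.5-fold do not share a chromosome.

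**Figure D2:**
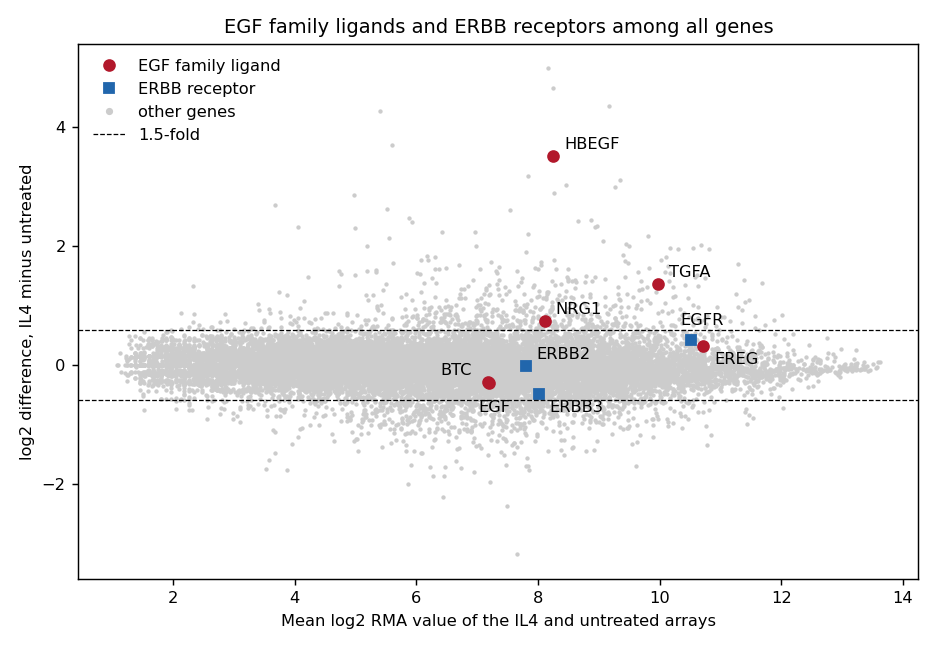
Log2 difference, IL4 minus untreated (y axis), plotted over the gene's mean log2 value (x axis), 1 point per gene, with EGF family ligands as red circles, ERBB receptors as blue squares, all other genes in grey and dashed lines at 1.5-fold. HBEGF (3.52), TGFA (1.35) and NRG1 (0.74) lie above the upper line, and the other 6 genes, from ERBB3 (-0.49) to EGFR (0.42), lie between the lines.

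EGFR is the receptor of most of these ligands. The probe set that stood for it, 224999_at, had 10.73 with IL4 and 10.31 in untreated cells, a difference of 0.42 or 1.34-fold. The 5 EGFR probe sets at or above the array median were all higher with IL4, by 0.30 to 0.66. Of these, 201984_s_at had 9.32 with IL4 and 8.66 in untreated cells and alone passed 1.5-fold, at 1.58-fold. The probe set 201983_s_at had 10.45 with IL4 and 10.03 in untreated cells, 210984_x_at had 6.94 with IL4 and 6.40 in untreated cells, and 211607_x_at had 6.43 with IL4 and 6.14 in untreated cells. The other 4 EGFR probe sets lay below the array median and differed by -0.062 to 0.19. Among them, 211551_at had 4.76 with IL4 and 4.56 in untreated cells, and 1565483_at had 4.86 with IL4 and 4.92 in untreated cells. The brighter EGFR probe sets therefore shared a direction, at a size below the 1.5-fold level in 4 of 5. Of all genes, 6.08% had a difference as large as that of EGFR or larger.

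ERBB2 binds no known ligand of its own and acts as a partner of the other receptors. Its probe set 216836_s_at had 7.79 with IL4 and 7.82 in untreated cells. The other 2 lay below the array median, 210930_s_at at 4.83 with IL4 and 4.49 in untreated cells and 234354_x_at at 4.28 with IL4 and 4.04 in untreated cells. The difference of -0.024 for ERBB2 was smaller than the SD of 0.25 between probe sets of a gene and turned to 0.030 with a loess correction, so no direction is given.

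ERBB3 binds neuregulins, has little kinase activity and recruits PI3 kinase. Its probe set 226213_at had 7.76 with IL4 and 8.25 in untreated cells, and 202454_s_at had 6.42 with IL4 and 6.97 in untreated cells. The differences were -0.49 and -0.55. ERBB3 thus came closest of the 9 genes to a 1.5-fold decrease. The ERBB3 probe sets 1563252_at, at 5.45, and 1563253_s_at, at 5.26, had exactly the same value in both arrays. Such equal values were found for 8.28% of all probe sets, mostly dim ones, and why they are equal was not tested. The last ERBB3 probe set, 215638_at, lay below the array median with 4.02 with IL4 and 3.78 in untreated cells. Of all genes, 6.44% had a difference as low as that of ERBB3 or lower.

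Taken by probe set, 10 of the 35 reached a 1.5-fold increase and 0 a decrease, where 3.2% of the probe sets with 1 gene were higher and 3.83% lower. Of the 10, 9 were among the 24 at or above the array median. Probe sets of a gene share its transcripts and are not independent, and the 10 came from HBEGF, TGFA, NRG1 and EGFR. HBEGF gave 2, TGFA 3, NRG1 4 and EGFR 1. By the probe sets that stood for the genes, HBEGF, TGFA and NRG1 lay more than 0.25 from one another and from the rest. EGFR and EREG, at 0.42 and 0.32, were closer to each other than that, and so were EGF and BTC, at -0.32 and -0.29, and EGF and ERBB3, at -0.32 and -0.49. Other probe sets were not so separate. TGFA 211258_s_at, at 0.82, lay near NRG1 206237_s_at, at 0.76, and NRG1 208230_s_at, at 0.69, lay near EGFR 201984_s_at, at 0.66. By rank from the highest of 19775 genes, EGFR was number 1203 and EREG number 1994, and from the lowest ERBB3 was number 1273, EGF number 2697 and BTC number 3016.

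**Figure D3:**
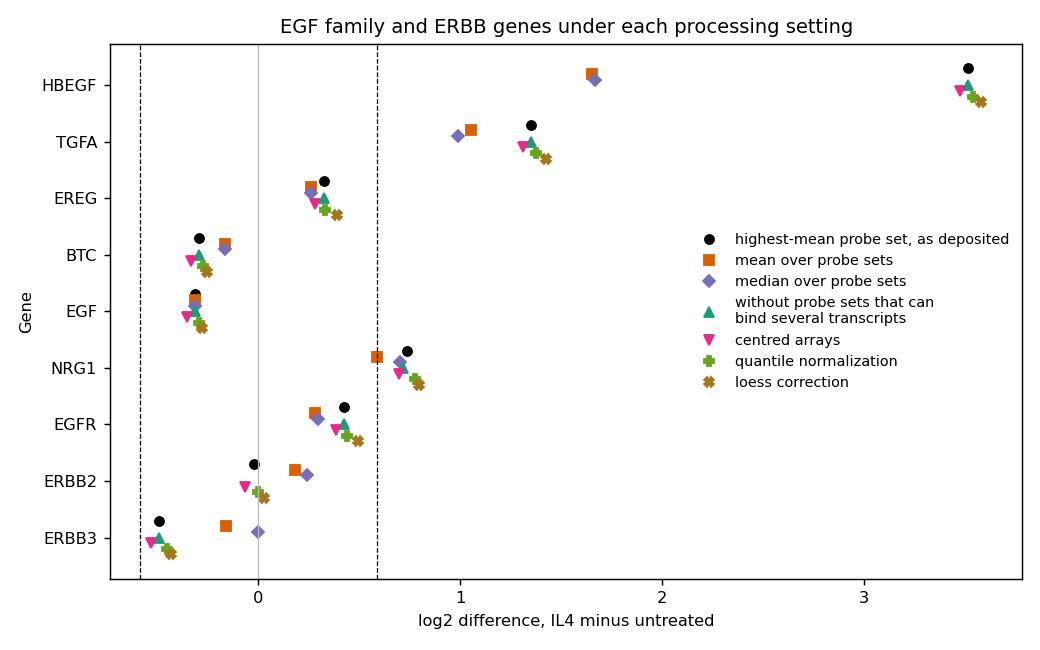
Log2 difference, IL4 minus untreated (x axis), of the 9 genes (rows) under 7 processing settings (marker shapes), with dashed lines at 1.5-fold. HBEGF lies near 3.5 except when its probe sets are averaged (1.65), TGFA and NRG1 stay at or right of the upper line, and the other 6 genes stay between the lines.

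The other genes of the pathway were described by lists according to their role. The counts of the lists are to be read beside the shares of all genes, 3.21% higher and 4.39% lower at 1.5-fold. Among genes at or above the array median these were 4.34% and 5.88%. None of the 4 other EGF family and ERBB genes measured reached 1.5-fold or the array median. ERBB4, the receptor that HBEGF, EREG, BTC and NRG1 can also bind, had 3.72 in both conditions, and NRG2 had 4.89 in both. NRG4 had 2.09 with IL4 and 1.86 in untreated cells, and NRG3 had 2.49 with IL4 and 2.35 in untreated cells. ERBB4 and NRG2 were named after their values were seen.

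Of 15 genes of ligand shedding, 2 reached a 1.5-fold increase and 0 a decrease, and the median difference was 0.14. ADAM19, which cuts neuregulin precursors, had 5.75 with IL4 and 4.66 in untreated cells, 2.12-fold higher, the untreated value lying below the array median. TIMP3, an inhibitor of ADAM17, had 9.57 with IL4 and 8.89 in untreated cells, 1.60-fold higher. Neither passed 1.5-fold when averaged over probe sets, with differences of 0.58 and 0.55. ADAM17, the main sheddase of HBEGF and TGFA, had 8.13 with IL4 and 8.10 in untreated cells, and ADAM10, the main sheddase of EGF and BTC, had 10.77 with IL4 and 11.06 in untreated cells, both named after their values were seen.

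Of 20 measured adaptors and proximal signalling genes, 0 were higher and 4 lower (median -0.10). PIK3R3, a regulatory subunit of PI3 kinase, had 6.36 with IL4 and 7.76 in untreated cells, 2.64-fold lower. PIK3R1, another regulatory subunit, had 6.53 with IL4 and 7.25 in untreated cells, 1.64-fold lower, and the catalytic subunit PIK3CB had 7.76 with IL4 and 8.39 in untreated cells, 1.55-fold lower. The adaptor gene NCK1, named after its values were seen, had 9.02 with IL4 and 9.63 in untreated cells, 1.53-fold lower. Averaged over probe sets, PIK3R1 and PIK3CB were at -0.51 and -0.57, short of 1.5-fold. Only PIK3R3 stayed past it, at -1.06, so NCK1 fell short as well. NCK1 was also short of 1.5-fold after quantile normalization and after the loess correction. Of 9 measured genes of the MAP kinase core, 0 were higher and 1 lower (median -0.024). It was the scaffold gene KSR1, with 6.19 with IL4 and 6.83 in untreated cells, and its mean over probe sets was only -0.14.

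Of 25 measured genes of feedback and receptor turnover, 5 were higher and 2 lower (median 0.0058). ERRFI1, whose product MIG6 binds and inhibits ERBB kinases, had 11.94 with IL4 and 10.88 in untreated cells, 2.09-fold higher. SPRY2 had 9.31 with IL4 and 7.69 in untreated cells, and the ERK phosphatase gene DUSP5 had 9.21 with IL4 and 7.79 in untreated cells. Among the lower genes, SPRY1 had 6.05 with IL4 and 7.86 in untreated cells, and LRIG3 had 4.64, below the array median, with IL4 and 5.79 in untreated cells. SPRY1 differed by -1.81, and by -1.11 when averaged over its probe sets. Inhibitors of the pathway were therefore found in both directions. DUSP6, another ERK phosphatase gene, named after its values were seen, had 8.85 in both conditions.

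Of 28 measured transcripts known to be induced by EGF receptor signalling, 10 were higher and 3 lower (median 0.43), where 3.21% of all genes were higher and 4.39% lower. ATF3 had 7.07 with IL4 and 5.30 in untreated cells, LIF had 7.11 with IL4 and 5.49 in untreated cells, and JUN had 11.36 with IL4 and 9.86 in untreated cells. With the probe sets that can match several transcripts left out, 20 genes of the list were measured and 5 of them were higher, and ATF3 was at -0.0083. Averaged over all its probe sets, ATF3 was at 0.81. The lower genes were ID1, with 10.95 with IL4 and 11.94 in untreated cells, and the ETS factor genes ETV1, with 8.93 with IL4 and 9.73 in untreated cells, and ETV5, with 9.42 with IL4 and 10.05 in untreated cells. Averaged over probe sets, ETV1 and ETV5 were at -0.56 and -0.49, short of 1.5-fold, and ETV5 was also short of it with the loess correction, at -0.55, and without probe sets matching several transcripts, at -0.58. A pair of the best known early transcripts, named after their values were seen, were not higher. EGR1 had 8.09 with IL4 and 8.29 in untreated cells, above the array median. FOS had 4.66 with IL4 and 5.02 in untreated cells, and both of these FOS values lay below the array median. EGR1 and FOS do not stand for the early genes of the list. Of others, FOSL1, MYC and JUNB differed by 1.09, 0.94 and 0.38 and IER3 by -0.15. The transcripts of this list answer to other stimuli too, and the cause of their differences was not tested.

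**Figure D4:**
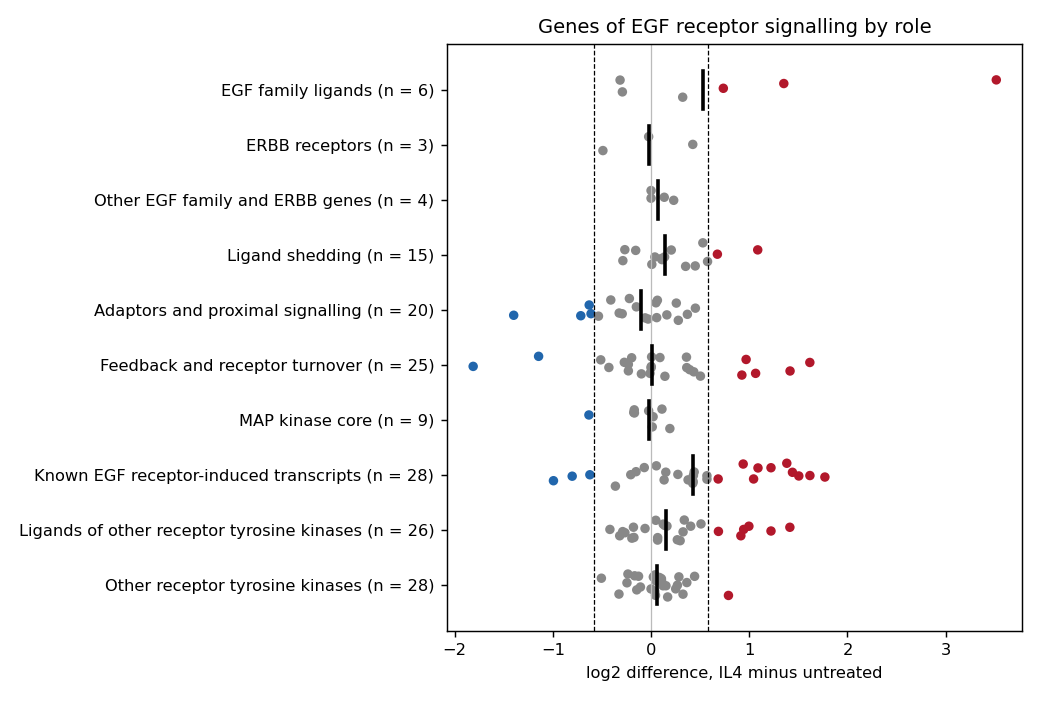
Log2 difference, IL4 minus untreated (x axis), of the measured genes of 10 groups (rows), with points spread vertically within a row. Each point is a gene, red where it was at least 1.5-fold higher, blue where lower, with black bars at the group medians and dashed lines at 1.5-fold. The EGF family ligands have 3 red points of 6 and a median of 0.53, and the ERBB receptors have none of 3.

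For comparison with other growth factor systems, 6 of 26 measured ligands of other receptor tyrosine kinases were higher and 0 lower (median 0.15). FGF2 had 9.60 with IL4 and 8.18 in untreated cells, VEGFA had 10.55 with IL4 and 9.33 in untreated cells, and FGF5 had 5.85 with IL4 and 4.85, below the array median, in untreated cells. Of 28 measured other receptor tyrosine kinases, 1 was higher and 0 lower (median 0.062). It was the ephrin receptor gene EPHA2, with 9.66 with IL4 and 8.87 in untreated cells. Of all genes, 3.21% were higher and 4.39% lower, so 1 of 28 receptors is near the share of all genes. No test was made between these groups and the EGF family.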

How the data were processed

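The series holds 1 array of IL4-treated and 1 array of untreated H2228 cells. The authors deposited a log2 value for each probe set of each array, made with RMA according to the processing notes (version not given in the sources used here). The study's methods also name GCOS 1.4. Scanner files were not analysed here, and the number of arrays limits the precision.

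Of 54675 probe sets, 41097 had 1 gene symbol in the array annotation, 1801 had several and 11715 others, controls aside, had none. Of the first, 41043 were brought to current symbols through their gene number in RefSeq (GRCh38.p14). The genes examined, the lists and the settings were chosen with earlier results of these data known. Genes named were all 10 family genes and, from each list, the 3 largest increases and 3 largest decreases past 1.5-fold at or above the array median (else the 2 largest differences), and the 2 neighbours on each side in the order of differences. Other genes, cell type markers included, were named after their values were seen. Some listed genes, among them 5 of 14 of the MAP kinase core, are not analysed here.

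Alternatives were the mean or median over probe sets, each probe set alone, leaving out probe sets that can bind several transcripts, centring, quantile normalization, loess (fraction 0.3), a 2-fold level and a floor at the median. The counting, loess and quantile steps were tested on simulated data as a check of the code. The counting test used a noise of 0.1, less than the SD of 0.25 between probe sets of a gene, so it does not measure the precision here. Python 3.11.15, numpy 2.4.6, pandas 2.3.3, statsmodels 0.14.6 and matplotlib 3.10.9 were used.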

Additional observations from a re-analysis of the deposited data

How the results depend on the processing

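The counts of 3 higher and 0 lower genes in the family kept to 3 and 0 under each setting, except for 2 higher at the 2-fold level. No paired analysis was possible because each condition had 1 array, and no replicate could be left out. With 1 array a condition, a difference between cultures cannot be told apart from one due to IL4. A value was taken to move when it changed by at least 0.25, the SD between probe sets of a gene.

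The choice of probe set mattered most. Averaged over probe sets, by mean and by median, HBEGF was at 1.65 and 1.67, TGFA at 1.05 and 0.99, ERBB3 at -0.16 and 0, and ERBB2 at 0.18 and 0.24. ERBB2 was at 0.030 after the loess correction. Single probe sets gave 3.15, 0.18 and -0.23 for HBEGF, 0.99 and 0.82 for TGFA, 0.11 and 0.51 for NRG1, -0.036 for BTC, 0.66, 0.10, -0.062 and -0.043 for EGFR, 0.34 and 0.24 for ERBB2, and 0, 0 and 0.24 for ERBB3. The means take in dim probe sets by construction; otherwise the cause was not tested. No member turned direction under centring, quantile normalization or loess other than ERBB2.

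Over all 19775 genes, 635 were higher and 868 lower at 1.5-fold as deposited, and 219 were higher and 176 lower at 2-fold. Over means of probe sets 496 were higher and 587 lower, and over medians 504 were higher and 607 lower. Without probe sets that can match several transcripts, 498 of 16787 genes were higher and 747 lower. With loess, 691 genes were higher and 801 lower. In the lists, at 2-fold, 1 adaptor gene and 0 MAP kinase core genes were lower, 3 feedback genes, 1 shedding gene, 2 ligands and 0 receptors of other receptor tyrosine kinases were higher, and 0 of the EGF-induced transcripts were lower. Over means of probe sets, 1 adaptor gene, 0 MAP kinase core genes, 1 other ligand and 1 EGF-induced transcript were lower and 0 shedding genes higher. Over medians, 2 adaptor genes, 0 MAP kinase core genes and 1 other ligand were lower and 0 shedding genes higher. With probe sets left out that can match several transcripts, 1 shedding gene, 3 other ligands and 5 EGF-induced transcripts were higher and 1 of the last was lower, over fewer genes. With loess, 2 adaptor genes were lower. ATF3 turned to -0.0083 without such probe sets, and ADAM17 and DUSP6, at 0.039 and 0.0023 as deposited, turned to -8.8e-04 and -0.038 when centred.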

Other observations

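Outside the EGF family, some markers of the labelled tissue differed between the arrays. The lung lineage factor gene NKX2-1 had 6.91 with IL4 and 7.88 in untreated cells, SFTA3 had 7.49 with IL4 and 8.20 in untreated cells, and the epithelial transcription factor gene ELF3 had 6.89 with IL4 and 8.25 in untreated cells. The E-cadherin gene CDH1 had 10.92 with IL4 and 10.18 in untreated cells. Of 7 fibroblast markers, COL3A1 alone passed 1.5-fold, at 4.45 with IL4 and 3.67 in untreated cells, both below the median over all probe sets, while COL1A1 had 11.23 with IL4 and 10.82 in untreated cells. The part of these differences in the values of the EGF family was not tested.

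The 3' minus 5' control probe sets, which report on RNA integrity, were 1.43 with IL4 and 1.73 in untreated cells for ACTB and 0.14 with IL4 and 0.16 in untreated cells for GAPDH. Of the 4528 probe sets with the same value in both arrays, 3674 lay below the array median and 854 at or above it.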
